A study of Mus musculus with 6 samples.

Results

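Gap43, the collapsin response mediator proteins (CRMPs) and the stathmins are cytoskeletal regulators of growing axons, and their transcripts were followed here in 3 mouse populations. The 10 genes, Gap43, Crmp1, Dpysl2, Dpysl3, Dpysl4, Dpysl5, Stmn1, Stmn2, Stmn3 and Stmn4, were taken by symbol and were measured by 19 of 45137 probe sets, the short oligonucleotide groups by which an Affymetrix array reads a transcript. Of these, 17 lay on chip A and 2 on chip B of the mouse 430 array pair, and they stand for 10 of 18193 named genes. One population was mature olfactory sensory neurons (OSNs) sorted by fluorescence from OMP-GFP mice, in which GFP stands in for the coding sequence of Omp, a gene used by mature olfactory and vomeronasal sensory neurons. It was set against the residual epithelium, which is the same tissue after those neurons were taken out, and against brain from OMP-GFP mice without the olfactory bulbs. All 3 populations thus came from the same reporter line. The sources used here state no age, sex or number of animals. About 500000 sorted cells and 2500000 residual cells gave the RNA, and a population had a single hybridisation per chip, so no difference has a replicate and no test was possible.

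Gap43 is a membrane-bound phosphoprotein of the growth cone that binds calmodulin and is a substrate of protein kinase C. In the olfactory epithelium, where neurons are replaced throughout life, it is the customary marker of immature OSNs that are still extending an axon. CRMPs carry signals from semaphorin receptors to microtubules and are switched by kinases such as Cdk5 and Gsk3b. Stathmins bind free tubulin and favour microtubule disassembly. Stmn1 is soluble and is also abundant in dividing cells, whereas Stmn2, Stmn3 and Stmn4 are neuronal proteins held on membranes by fatty acids.

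Values are deposited signals, each array scaled by the authors to a common mean, and ratios were taken on the log2 scale within a chip after signals under the chip's lower quartile were raised to it (70.6 on chip A, 79.9 on chip B). A gene was counted where either signal in a comparison reached the median of its chip (222.15 on chip A, 243.6 on chip B) and called from 2-fold. As a measure of error, the 99 probe sets present on both chips gave log2 ratios that differed between chips by 0.23 for OSN over residual epithelium (SD 0.25), by -0.19 for OSN over brain (SD 0.29) and by -0.42 for residual epithelium over brain (SD 0.34). The SD between probe sets within a gene was larger, at 0.62, 0.79 and 0.78 log2 units in the same order. Neither SD holds the spread between animals. Omp read 11057 in OSNs, 248.8 in the residual epithelium and 201.4 in brain, a check of the labels only, since the sort used the Omp locus. With arrays scaled instead on the shared probe sets, the median of all counted genes shifted by -0.28 for OSN over brain and by -0.26 for residual epithelium over brain. The share of calls that were higher then was 35.3% against 46.8%, and 42.7% against 54.3%.

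Setting OSNs against the residual epithelium asks which members the neurons sorted from the nose carry. Stmn4 was higher in OSNs and Dpysl3 and Dpysl5 were lower, while the other 7 genes stayed within 2-fold by the probe set that represents each gene (the one ranked highest on its chip). Thus 1 of 10 members was called higher and 2 of 10 lower, where 12.8% of all 12255 counted genes were higher and 18.7% were lower, so both shares were near the background. The median log2 ratio of the members was -0.52, against -0.05 over all counted genes. Among the 16 counted probe sets of the members, 1 was higher (background 13.2%) and 5 were lower (background 17.9%). One of the lower, Stmn1 1448113_at, was counted only through residual epithelium, which fixes its sign. In bulk RNA, fewer cells of a type and less RNA per cell cannot be told apart.

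**Figure D1:**
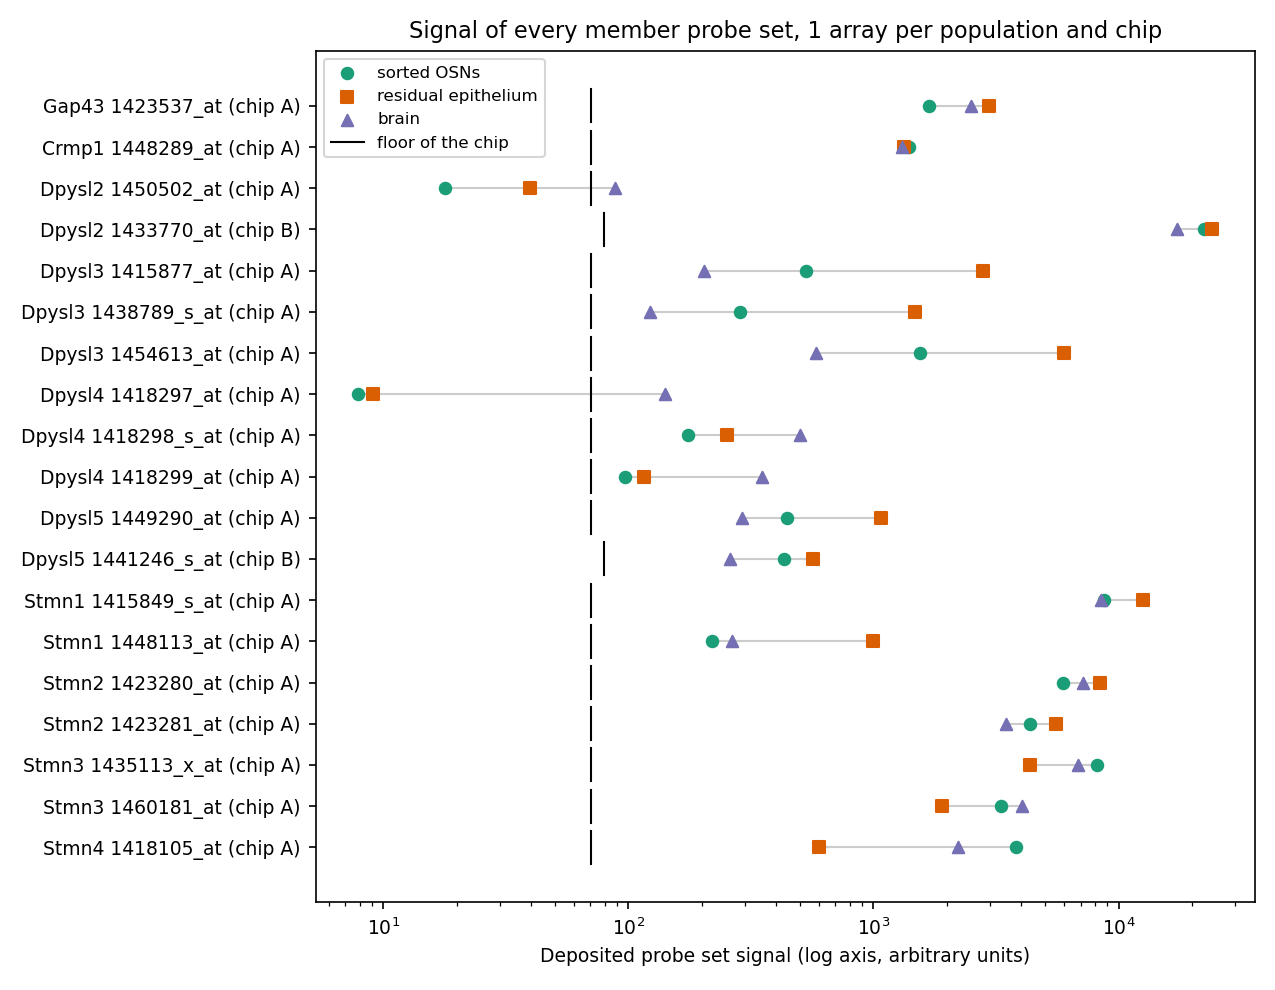
Deposited signal (log axis) of all 19 probe sets of the 10 genes in sorted OSNs (circles), residual epithelium (squares) and brain (triangles), 1 array per point, with the floor of each chip as a black tick. Residual epithelium lies highest for all 3 Dpysl3 probe sets, and lowest for Stmn3 and Stmn4.

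Gap43, with 1 probe set, read 1684.6 in OSNs, 2974.7 in the residual epithelium and 2496.2 in brain. The sorted OSNs were thus the lowest of the 3 populations, and yet the marker of immature neurons was well above the floor in them. The signal was 1.77-fold lower in OSNs than in residual epithelium (log2 -0.82) and 1.48-fold lower than in brain (-0.57). The first of these is larger than the SD between probe sets of a gene (0.62) and the second is not (0.79). Neither reaches 2-fold, and no other probe set checks the gene. Under the 3 other scalings tried, the log2 ratio to residual epithelium lay between -0.93 and -0.80. Cyp2g1, a sustentacular gene, read 3821.8 in the sorted cells, 2657.3 in residual epithelium and 102.7 in brain. Other sustentacular genes went the other way. Of 8 counted, 3 were lower and 1 was higher in OSNs than in residual epithelium (sums of 11175 and 16016). Of 11 immature OSN genes and 8 sustentacular genes, none was below the floor in the sorted cells. The part of such cells in the Gap43 signal of the sort was not tested.

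Dpysl3, a CRMP linked to growth cone dynamics, had the widest range of the family. Its probe set with the strongest signal (1454613_at) read 1543.2 in OSNs, 6016.8 in the residual epithelium and 584.9 in brain. The other probe sets read 531.2, 2807.5 and 203.4 (1415877_at) and 285.5, 1484.3 and 122.9 (1438789_s_at) in the same order. All 3 therefore placed residual epithelium highest, OSNs next and brain lowest. OSNs were 3.90-fold, 5.29-fold and 5.20-fold below residual epithelium by the 3 probe sets, and 2.64-fold, 2.61-fold and 2.32-fold above brain. With a pseudocount of 100 in place of the floor, 1438789_s_at had a log2 ratio of only 0.79 over brain. Residual epithelium stood 10.3-fold, 13.8-fold and 12.1-fold above brain. Against brain, 1415877_at and 1438789_s_at were counted only through the OSN or residual signal, which fixes their sign.

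Dpysl5, the most divergent CRMP in sequence, had the same order of populations as Dpysl3. On chip A it read 442.8 in OSNs, 1075.9 in the residual epithelium and 291.1 in brain (1449290_at). On chip B it read 431.4, 566.9 and 260.2 (1441246_s_at). Both chips put residual epithelium above OSNs and OSNs above brain, but the first step differed in size. OSNs were 2.43-fold below residual epithelium on chip A and 1.31-fold below it on chip B, so the 2-fold call rests on the chip A probe set. The log2 ratios of -1.28 and -0.39 lie 0.89 apart. The SD between probe sets of a gene (0.62) is taken around the gene's mean, and gaps between 2 probe sets spread wider than that. Against brain, OSNs were within 2-fold on both chips (log2 0.61 and 0.73), and residual epithelium was 3.70-fold and 2.18-fold higher.

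Crmp1, a CRMP that acts in semaphorin signalling, was even across the populations, with 1402.3 in OSNs, 1326.6 in the residual epithelium and 1312.9 in brain. Its log2 ratios of 0.08, 0.10 and 0.01 for the 3 comparisons changed sign under other scalings and lay inside the spread between chips. Dpysl2, which carries tubulin to growing microtubules and helps set the axon, gave 22252 in OSNs, 24080 in the residual epithelium and 17384 in brain on chip B. These signals differed by 1.08-fold within the epithelium and by 1.28-fold between OSNs and brain. Under quantile normalization the log2 ratio of Dpysl2 to brain turned from 0.36 to -0.36, so no direction is given. Its chip A probe set (1450502_at) read 17.9, 39.5 and 88.3 and was not counted.

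Dpysl4, a CRMP of brain neurons, was the only member whose representing probe set was highest in brain. By 1418298_s_at it read 175.1 in OSNs, 252.0 in the residual epithelium and 501.3 in brain, and by 1418299_at 96.6, 115.3 and 349.9. OSNs were 2.86-fold and 3.62-fold below brain by these probe sets. The third, 1418297_at, read 7.9, 9.1 and 141.3, so brain stood above the floor and both olfactory populations below it. Within the epithelium the ratio of 1418298_s_at was -0.53, inside the SD between probe sets of a gene. Dpysl4 signals were low, and OSNs and residual epithelium did not both reach the chip median on any probe set of it.

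Stmn4, a neuronal stathmin, read 3813.4 in OSNs, 600.7 in the residual epithelium and 2217.0 in brain. OSNs stood 6.35-fold above residual epithelium, at percentile 98.1 of the ratios of all counted genes. Under the 3 other scalings its log2 ratio lay between 2.55 and 2.68. Against brain OSNs were 1.72-fold higher, short of a call, and residual epithelium was 3.69-fold lower than brain. The gene had 1 probe set on the arrays.

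Stmn3, another neuronal stathmin, followed the same order within the nose at a smaller size. Its probe set 1435113_x_at read 8207.3 in OSNs, 4338.7 in the residual epithelium and 6848.3 in brain, and 1460181_at read 3305.2, 1908.6 and 4026.8. OSNs were above residual epithelium by 1.89-fold and 1.73-fold, with log2 ratios of 0.92 and 0.79 that exceed the SD between probe sets of a gene but not 2-fold. The probe sets disagreed on whether OSNs (log2 0.26) or brain (-0.28) were higher. The suffix x marks probes that may bind other transcripts too.

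Stmn2, the stathmin of growth cones and regenerating axons, read 5937.2 in OSNs, 8429.3 in the residual epithelium and 7192.8 in brain by 1423280_at. By 1423281_at it read 4360.4, 5546.4 and 3465.2. Residual epithelium was the highest by both, by 1.42-fold and 1.27-fold over OSNs. Those differences (log2 -0.51 and -0.35) are within the SD between probe sets of a gene. Against brain the probe sets pointed in opposite directions, at -0.28 and 0.33.

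Stmn1, the soluble stathmin, gave different answers by probe set. By 1415849_s_at it read 8716.8 in OSNs, 12573 in the residual epithelium and 8460.9 in brain, and OSNs were 1.44-fold below residual epithelium. By 1448113_at it read 220.4, 998.6 and 265.1, and OSNs were 4.53-fold below. Both placed residual epithelium highest, with log2 ratios of -0.53 and -2.18 that lie 1.65 apart. The stronger probe set represents the gene by the rule used. In OSNs over residual epithelium, 1448113_at was counted only through the residual signal, which fixes its sign. Had probe sets with the suffixes x, s and a been left out, or the median over probe sets been taken, Stmn1 would have been called lower in OSNs. The suffix s marks probes shared by several transcripts.

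**Figure D2:**
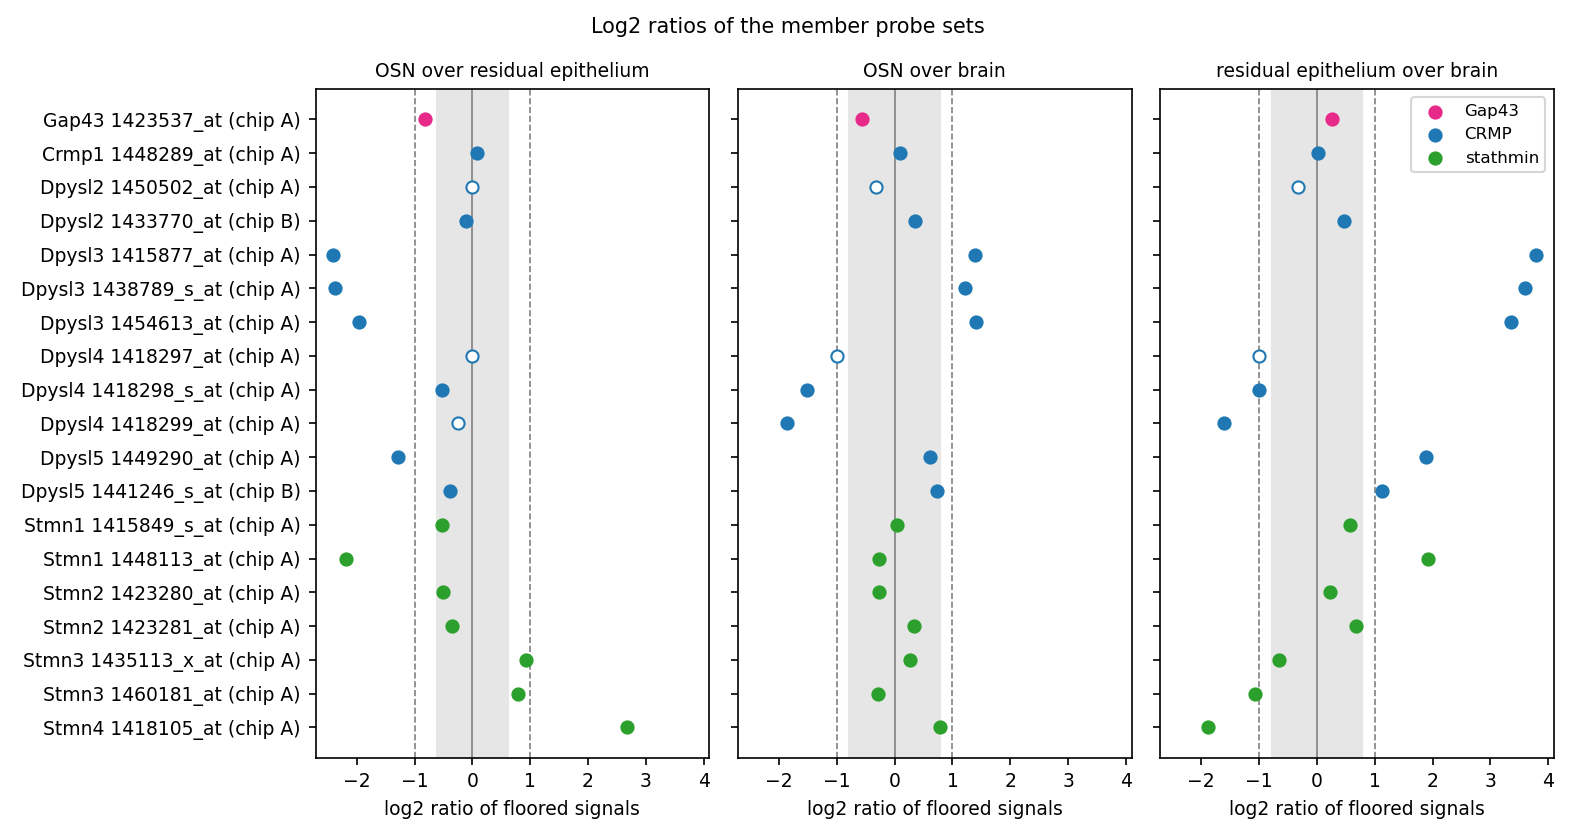
Log2 ratios of the 19 probe sets in the 3 comparisons, coloured by family, with open points where neither signal reached the chip median, dashed lines at 2-fold and grey bands of 1 SD between probe sets of a gene (0.62, 0.79 and 0.78). Stmn4 at 2.67 and the Dpysl3 probe sets from -2.40 to -1.96 lie far outside the band in the left panel.

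The families differed in where their members spread. Stathmin ratios ranged over 3.19 log2 units between OSNs and residual epithelium, from Stmn1 at -0.53 to Stmn4 at 2.67, and over 1.06 units between OSNs and brain. CRMP ratios ranged over 2.04 units within the epithelium, from Dpysl3 at -1.96 to Crmp1 at 0.08. Against brain they ranged over 2.92 units, from Dpysl4 at -1.52 to Dpysl3 at 1.40. These are ranges over 4 and 5 genes and were not tested.

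By the representing probe set, residual epithelium had the highest signal for 6 of the 10 genes, Gap43, Dpysl2, Dpysl3, Dpysl5, Stmn1 and Stmn2. It was the highest for 35.4% of the 13315 genes that reached the chip median in any population. OSNs were the highest for Crmp1, Stmn3 and Stmn4 (31% of those genes), and brain for Dpysl4 (33.6%). The place of Crmp1 rests on ratios that changed sign under other scalings, and the second Stmn3 probe set, 1460181_at, was highest in brain. The most frequent order, residual epithelium above OSNs above brain, held for Dpysl2, Dpysl3, Dpysl5 and Stmn1 and for 20.8% of all such genes. For Dpysl2 and Stmn1 part of that order rests on differences that turned sign under another scaling. By these probe sets Stmn3 and Stmn4 shared the order OSNs, brain, residual epithelium, which 11.5% of genes had.

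Promoter sequences from RefSeq (GRCm38.p6) were used for 3 of the 10 genes. Entries of 1 chromosome were left out of the search and of the background windows. Dpysl5 was lower in OSNs than in residual epithelium, Crmp1 was even, and Stmn3 was on the higher side. The 250 bases before the annotated start were searched on both strands for 4 motifs, and the capitals mark matches to CANNTG (the E-box of bHLH factors) and GGGCGG (the GC box).
Dpysl5, chr5:30711314-30711563, plus strand: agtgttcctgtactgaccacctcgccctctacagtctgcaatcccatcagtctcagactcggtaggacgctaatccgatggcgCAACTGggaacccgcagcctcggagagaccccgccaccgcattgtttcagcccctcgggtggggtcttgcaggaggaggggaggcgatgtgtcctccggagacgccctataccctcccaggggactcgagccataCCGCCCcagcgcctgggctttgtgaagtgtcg
Crmp1, chr5:37241808-37242057, plus strand: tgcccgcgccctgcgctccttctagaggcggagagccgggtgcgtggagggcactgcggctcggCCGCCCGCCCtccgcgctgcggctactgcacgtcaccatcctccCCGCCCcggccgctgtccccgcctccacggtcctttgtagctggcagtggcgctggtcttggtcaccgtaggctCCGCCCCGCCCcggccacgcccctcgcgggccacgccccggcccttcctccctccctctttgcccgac
Stmn3, chr2:181314501-181314750, minus strand: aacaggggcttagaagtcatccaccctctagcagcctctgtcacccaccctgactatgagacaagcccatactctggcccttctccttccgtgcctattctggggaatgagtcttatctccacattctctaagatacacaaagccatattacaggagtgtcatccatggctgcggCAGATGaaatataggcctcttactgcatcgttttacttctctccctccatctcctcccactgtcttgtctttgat
Dpysl5 held 1 E-box whose first base is 167 bases before the start and 1 GC box at 32. Crmp1 held 5 GC boxes, some overlapping, and no E-box at this start. A second annotated Crmp1 start, not printed, had 1 E-box and 2 GC boxes. Stmn3 held 1 E-box, CAGATG, at 75 and no GC box. Of 32536 such windows of mouse genes, 66.2% held CANNTG and 33.0% held GGGCGG. The motifs TATAAA (12.3%) and CCAAT (33.8%) were in none of the printed windows. GC content was 62.8% for Dpysl5, 75.6% for Crmp1 and 48.8% for Stmn3, around a median of 52.4%. A match describes the letters and shows no binding.

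Brain held the other neurons and the glia. Against brain, 1 of 10 members, Dpysl3, was called higher in OSNs, with a background of 18.5% of 12377 counted genes. Another, Dpysl4, was called lower, with a background of 21%, but it was counted only through its brain signal, which fixes that direction. By probe set, 3 of 17 counted were higher (background 17.5%) and 2 were lower (background 22.4%). Of the higher, Dpysl3 1415877_at and 1438789_s_at were counted only through OSNs, and both lower ones only through brain, which fixes their sign. The median log2 ratio of the members was 0.18, against 0.05 over all counted genes. The other 8 genes were within 2-fold of brain in sorted OSNs. Residual epithelium over brain gave 2 higher calls, Dpysl3 and Dpysl5 (background 22.5% of 12917), and 1 lower, Stmn4 (background 18.9%), with a median of 0.24 against 0.12. By probe set, 6 of 17 were higher (background 21.1%) and 3 were lower (background 21%). Dpysl3 1415877_at and 1438789_s_at were counted there only through residual epithelium and Dpysl4 1418299_at only through brain, which fixes their sign. Dpysl4 missed the lower call at a log2 ratio of -0.99 and crossed it under each of the 3 other scalings. The comparisons share arrays, so their ratios are not independent of one another.

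**Figure D3:**
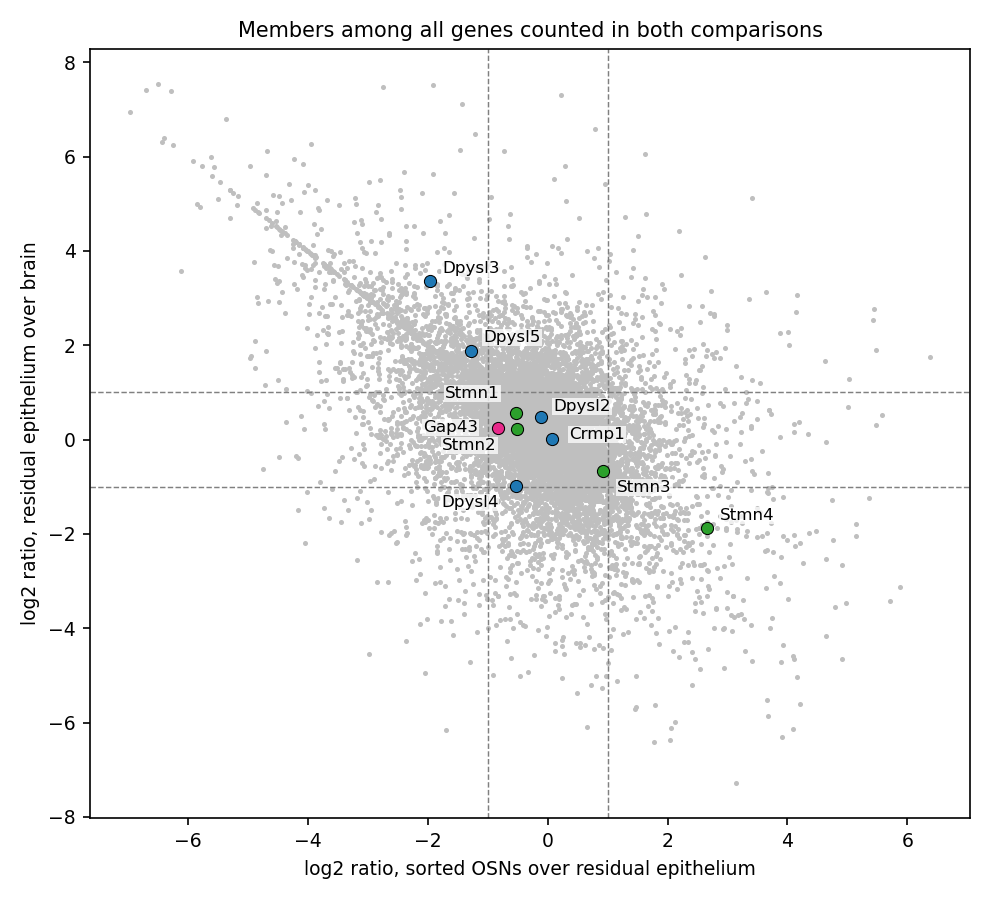
Log2 ratio of OSNs over residual epithelium (horizontal) against residual epithelium over brain (vertical) for the 10 members (coloured by family) and all other genes counted in both comparisons (grey), with dashed lines at 2-fold. Both axes hold the residual array, so they are not independent. Dpysl3 at -1.96 and 3.36 and Stmn4 at 2.67 and -1.88 lie at opposite ends of the members.

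Markers of other cells moved with the residual arrays. Immature OSN genes, listed without the members, were lower in OSNs than in residual epithelium for 7 of 11, with summed signals of 16661 in OSNs, 73442 in the residual epithelium and 6183.9 in brain. Crabp1 and Cxcr4 were 25.5-fold and 23.8-fold lower, whereas Hdac9 and Trib3 were 5.96-fold and 2.76-fold higher. Crabp1 and Cxcr4 were counted only through the residual signal, which fixes their sign. Of the 11 genes, 7 reached the chip median in both populations. Basal progenitor genes were lower for 8 of 8 (sums of 5678.4, 24238 and 3892.2) and cell cycle genes for 23 of 24 counted (7033.4, 52696 and 4400.1). Neutrophil and marrow genes were lower for 13 of 13 (2316.8, 91963 and 1776.2), lymphoid precursor genes for 10 of 10 (726.2, 18552 and 931.9) and erythroid genes for 6 of 6 (3682.4, 21359 and 7878.2). Most genes of each of these last 5 lists were counted only because of their residual signal, which fixes their sign. In OSNs, 9 of 25 cell cycle genes, 5 of 13 marrow genes and 6 of 10 lymphoid genes were below the floor, and in residual epithelium none. Of 8 sustentacular genes, 3 were lower and 1 was higher (11175, 16016 and 7037.9), and 6 reached the chip median in both populations. Their part in the signals of Dpysl3, Dpysl5, Gap43, Stmn1 and Stmn2 was not tested.

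Of 13 brain neuron genes, 11 were lower in OSNs than in brain and 6 were below the floor in OSNs. Only 6 of the 13 genes reached the chip median in both populations. The rest were counted through brain, which fixes their sign. All 13 summed to 30225 in OSNs and 6713.5 in residual epithelium, against 104444 in brain. In OSNs most of the sum came from Syt1 (22027) and Snap25 (5337.7). Oligodendrocyte genes summed to 4828.0 in OSNs and 10431 in residual epithelium, against 32272 in brain, and astrocyte genes to 6510.2 and 3570.8, against 56836. Olig1 (2721) and Olig2 (941.8) gave most of the OSN sum of the former, and Slc1a2 (4519.1) most of that of the latter. Ensheathing glia genes, of the cells around olfactory axons, summed to 1142.1 in OSNs, 5921.3 in the residual epithelium and 17951 in brain. Most of the residual sum came from Apoe (4973.7), and S100b and Frzb were below the floor there. Mature OSN genes summed to 178338 in OSNs, 5819.8 in the residual epithelium and 5526.1 in brain, and 7 of 7 counted were higher in OSNs than in residual epithelium. The part of glia in the brain signals of the members was not tested.

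A list of 8 growth cone proteins held 3 genes that were lower in OSNs than in residual epithelium. Basp1, a growth cone protein with the same kinase and calmodulin partners, was 4.01-fold lower in OSNs than in residual epithelium and 6.07-fold lower than in brain. Marcks and Marcksl1, kindred substrates of protein kinase C, were 2.83-fold and 3.04-fold lower than in residual epithelium and within 2-fold of brain. Their probe sets ranged widely, from -2.54 to -0.14 for Marcks and from -1.60 to 0.30 for Marcksl1. In this list of 8, which also holds actin regulators, 3 of 6 counted genes were lower and 1 was higher, with a median log2 ratio of -1.15. Over all counted genes, the background for this and every other list, 18.7% were lower and 12.8% were higher. The exception was Nrn1l, a relative of neuritin, at 24086 in OSNs, 150.8 in the residual epithelium and 149.9 in brain. Nrn1l was counted only through OSNs, which fixes its sign. Nrgn, a calmodulin-binding relative of Gap43 from forebrain neurons, was below the floor in OSNs, at 186.8 in the residual epithelium and 3443 in brain. Against brain 4 of 8 were lower and 1 was higher in OSNs (median -1.42), with Cap2, an actin regulator, 15.1-fold and Nrn1, the neuritin gene, 12.6-fold lower. Cap2 and Nrgn were counted there only through their brain signal. The background against brain, for this and every other list, was 21% lower and 18.5% higher.

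Among the partners of Gap43, 2 of 11 were higher and 4 were lower in OSNs than in residual epithelium (median 0.18). Prkcb, a protein kinase C gene, was at least 16.5-fold lower, and Prkca was 2.65-fold lower. Elavl4 and Elavl2, Hu proteins that stabilise neuronal transcripts including that of Gap43, were 3.75-fold and 2.42-fold lower, while Elavl3 was within 2-fold (log2 0.49). Of the subunits of calcineurin, the phosphatase that opposes protein kinase C on Gap43, Ppp3ca was 2.45-fold and Ppp3cc 2.25-fold higher. Ppp3cb was within 2-fold (log2 0.32). Ppp3cc was counted only through OSNs and Prkcb only through residual epithelium, which fixes their sign. Probe sets of Ppp3ca ranged from 0.70 to 1.29. Against brain, 4 of 11 were lower, with Prkcb at least 76.1-fold and Prkce 10.6-fold lower, and 2 were higher (median -0.38). Prkcb was counted there only through brain, and Ppp3cc, among the higher, only through OSNs.

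**Figure D4:**
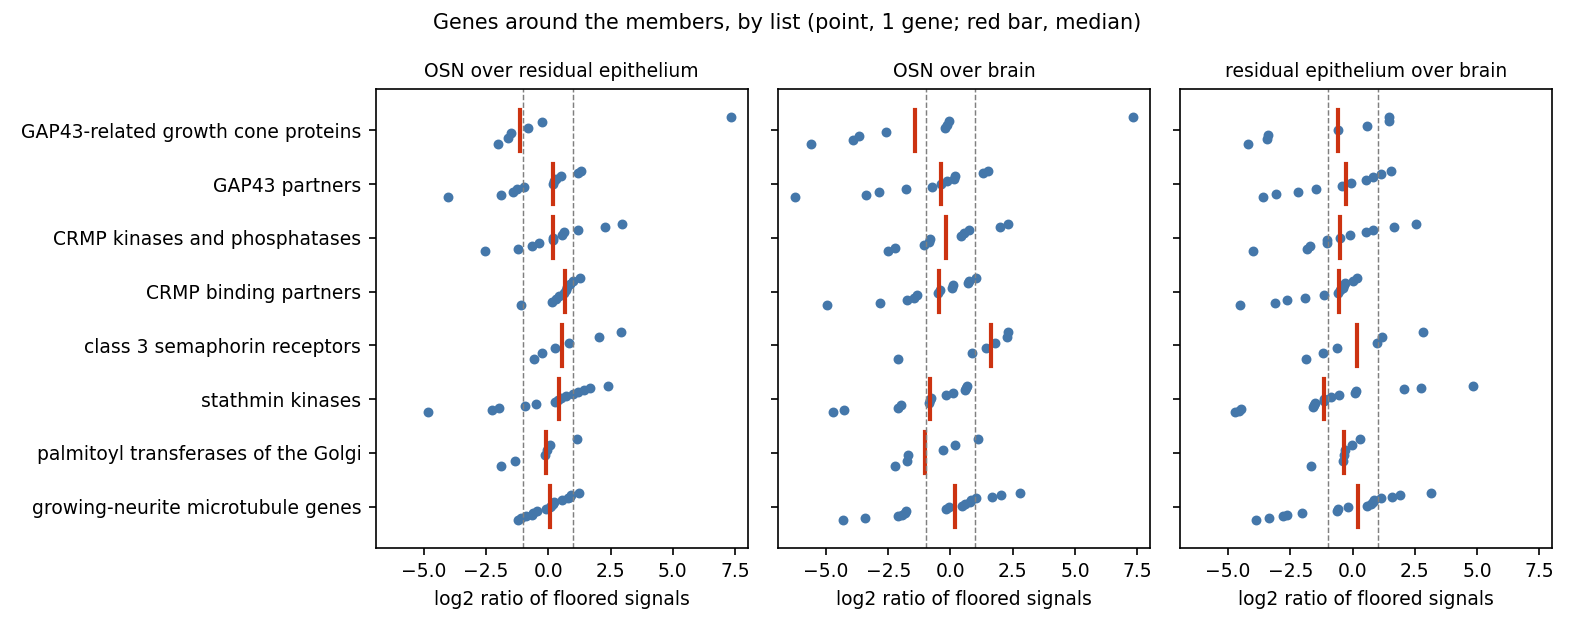
Log2 ratios of the counted genes of 8 lists around the members (1 point per gene, red bar at the median, dashed lines at 2-fold) in the 3 comparisons. The growth cone proteins have a median of -1.15 in OSNs over residual epithelium, with Nrn1l at 7.32 far to the right.

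Of 11 kinases and phosphatases that act on CRMPs, 3 stood higher and 2 lower in OSNs than in residual epithelium (median 0.20). Ppp2r2b, a regulatory subunit of protein phosphatase, was at least 7.67-fold higher, Cdk5r2, an activator of Cdk5, 4.83-fold, and Dyrk2, a priming kinase, 2.27-fold. The tyrosine kinase genes Fes and Fyn were at least 5.79-fold and 2.34-fold lower. Ppp2r2b was counted only through OSNs and Fes only through residual epithelium, which fixes their sign. Cdk5 and Gsk3b themselves were close to even, at 0.17 and 0.20. Against brain, Rock1 was 4.93-fold and Dyrk2 3.96-fold higher and Cdk5r1 5.63-fold and Fyn 4.73-fold lower, with 2 of 10 higher and 3 lower (median -0.20). Of the proteins that bind CRMPs, 8 of 10 were within 2-fold of residual epithelium (median 0.67). Kif5a, a kinesin heavy chain, was 2.43-fold higher and Kif5c 2.12-fold lower, and their counted probe sets kept the sign (0.99 to 1.28 for Kif5a). Chn2 and Chn1, the chimaerins that restrain Rac, were at least 31.0-fold and 7.12-fold lower than in brain. Against brain, 5 of 12 of this list were lower and 1 was higher (median -0.46). Chn2 was counted there only through brain, which fixes its sign.

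Of 14 counted stathmin kinases, 4 were higher and 3 lower in OSNs than in residual epithelium (median 0.45). Camk2a was 5.31-fold and Mapk10, a neuronal Jun kinase, 3.20-fold higher, but the Camk2a probe sets ranged from -0.93 to 2.41. The 3 lower genes were the mitotic kinases Cdk1 (at least 28.4-fold), Aurka (4.87-fold) and Aurkb (3.98-fold), which also stand in the cell cycle list. All 3 were counted only through the residual signal, which fixes their sign. Against brain none of 12 was higher and 4 were lower (median -0.81), Camk2b by at least 26.5-fold and Camk4 by 19.4-fold. Camk2b was counted there only through brain.

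By the representing probe set, 13 of 16 microtubule genes of growing neurites were inside 2-fold within the epithelium, 1 was higher and 2 were lower (median 0.09). Other counted probe sets were past 2-fold for Map6 (2.05), Map1a (1.72), Map1b (1.43), Dcx (1.38), Clasp2 (1.10) and Mapt (-2.57). Mapre3, a plus-end binding protein, was 2.35-fold higher, and Dclk1 and the tubulin gene Tubb2b were 2.32-fold and 2.16-fold lower. Mapre3 was counted only through OSNs, which fixes its sign. Probe sets of Dclk1 ranged from -1.57 to 0.23. Dcx, the doublecortin gene of young neurons, was on the higher side in OSNs (log2 0.90), with 2804.4 in OSNs, 1498.3 in the residual epithelium and 404.4 in brain. Against brain, 4 of 16 were higher and 6 were lower (median 0.20). Dcx was 6.93-fold and Tubb2b 4.11-fold higher, and Mapt and Map2, the tau and dendritic MAP genes of mature brain neurons, were 20.1-fold and 10.7-fold lower.

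The genes whose pattern over the 3 populations was most like that of a member were found by the larger difference in the log2 ratios of OSN over residual epithelium and OSN over brain, among genes above the floor on all 3 arrays of the chip. Of 7224 candidates on chip A, 163 lay within 0.25 of Gap43, the nearest being Kat6b, Eef1e1 and Egln3 (0.02 each). The pattern of Crmp1 was the commonest, with 565 genes within 0.25. That of Stmn4 was the rarest, with 4 genes, and the nearest were Ppargc1a, Limch1 and Kcnn2 (0.12, 0.15 and 0.20). Dpysl3 had 5 such genes, the nearest Haus4, Crip1 and Tspo (0.13, 0.19 and 0.20), and Dpysl5 had 34, the nearest Armc10, Prim1 and Pabpc1. Likeness over 3 arrays says little about any single gene.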

How the data were processed

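RNA from 3 populations was hybridised to chips A and B, 1 array each (6 arrays). The deposited values are probe set intensities on a linear scale. Per the submitters' processing notes they were made with MAS5, named for 5 of the 6 arrays. Version, scaling target and detection calls were not given in the sources used here. On every array the mean between percentile 2 and percentile 98 lay between 499.604 and 499.874, so each had been scaled to a common level, which fixes relative and not absolute amounts. Depth has no counterpart here, and the number of arrays limits the precision.

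Control probe sets were left out. Of 45137 probe sets, 35041 had 1 symbol in the platform annotation (34837 matched by Entrez identifier to the GRCm38.p6 RefSeq table), 936 had several and 9160 had none. Signals were floored at percentile 25 of a chip, genes counted from percentile 50, and each gene represented by the probe set whose mean log2 signal ranked highest on the chip. Where flooring changed the lower signal, the fold is given as "at least". The genes named are all members, with every probe set, Omp and Actb as checks, and the 3 nearest in pattern to Gap43, Stmn4, Dpysl3 and Dpysl5. Of a list, most genes named are from the 2 highest and 2 lowest counted genes in a comparison, but not all of those are named. Others were singled out after their values were seen: Marcks, Nrn1, Prkca, Ppp3cb, Elavl2, Elavl3, Cdk5, Gsk3b, Aurkb, Map6, Map1a, Map1b, Clasp2 and Nrp1. Members and lists were chosen with earlier results of these data known. A longer promoter motif, that of EBF factors, was also searched and is not reported here. The computation was tested on simulated arrays. The software was pandas 2.3.3 and numpy 2.4.6 under Python 3.11.15, with figures by matplotlib 3.10.9. Alternatives covered the floor, the filter, the scaling, the choice of probe set and the fold (12 in all).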

Additional observations from a re-analysis of the deposited data

How the results depend on the processing

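The counts of members called kept within 1.5 times of the reported value in 60 recomputations and moved further in 12. At a 3-fold call, 0 members were higher and 0 lower in OSNs than in brain, and 1 was lower than in residual epithelium (Dpysl3). At a 1.5-fold call, 3 were higher in OSNs than in brain, 2 were higher than in residual epithelium (Stmn3 and Stmn4), and 3 were lower in residual epithelium than in brain. With the filter at percentile 75, 0 were lower in OSNs than in brain, because Dpysl4 was then not counted. For residual epithelium over brain, 2 were lower (Dpysl4 and Stmn4) with ratios centred on their median, with quantile normalization, with scaling on shared probe sets and with the median over probe sets, and 3 (Stmn3 also) with the suffixed probe sets left out. With that median Dpysl5 was no longer called lower in OSNs than in residual epithelium and Stmn1 was, so the count stayed at 2. Of 456 recomputed ratios of single probe sets, 30 moved by more than the SD between chips and 12 changed sign, none of them a called ratio. No paired analysis was possible because each population had 1 array per chip. With 1 array per population, no value has a biological error.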

Other observations

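Of the 6 receptor genes for class 3 semaphorins, which signal through CRMPs, 2 stood higher in OSNs than in residual epithelium, with none lower (median log2 ratio 0.54), where 12.8% of all counted genes were higher and 18.7% lower. Plxna3 was 7.58-fold and Plxna4 4.08-fold higher, while Nrp2 (-0.56) and Plxna2 (-0.25) stayed within 2-fold by the representing probe set. Counted probe sets of Plxna2 ranged from -1.80 to -0.25 and those of Nrp1 from 0.27 to 1.27. Against brain, where 18.5% of counted genes were higher and 21% lower, 4 of 6 were higher, with Plxna3 4.96-fold and Nrp2 4.86-fold, and Plxna2 was 4.37-fold lower (median 1.61). Nrp2 read 2587.1 in OSNs, 3807.5 in the residual epithelium and 532.8 in brain.

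Golgi palmitoyl transferases, the enzyme family that attaches the fatty acids by which Gap43 and the neuronal stathmins are held on membranes, showed 1 higher and 2 lower of 6 in OSNs over residual epithelium (median -0.09). Zdhhc3 was 2.19-fold higher, but its probe sets ranged from -1.81 to 1.13. Zdhhc9 was at least 3.72-fold and Zdhhc15 2.56-fold lower, but both were counted only through the residual signal, which fixes the sign. Against brain 3 of 6 were lower and 1 was higher (median -1.02), with Zdhhc9 at least 4.65-fold and Zdhhc17 3.35-fold lower. Zdhhc9 and Zdhhc15 were counted there only through brain, and the Zdhhc17 probe sets ranged from -1.74 to 0.43.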
